A study of Homo sapiens with 4 samples.

Results

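A set of 10 genes of the insulin-like growth factor (IGF) system were examined: the proteases PAPPA and PAPPA2, their inhibitor STC1, the IGF binding proteins IGFBP2, IGFBP3, IGFBP4, IGFBP6 and IGFBP7, and the receptors IGF1R and IGF2R. They are 10 of the 34555 genes that could be paired with a symbol, and they are listed as 13 of 65423 transcripts. Where a gene had several transcripts, its value is that of the most counted one. The genes were chosen by their role in this system and with their counts in both cell lines already known, so the values below are a description and carry no test. All 10 had a mean of at least 50 counts.

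RNA of MDA-MB-231-LM2 cells (LM2) and of MDA-MB-231 cells was sequenced. MDA-MB-231 is a human breast cancer cell line that lacks oestrogen and progesterone receptors, and LM2 is a subline of it with a high capacity to form lung metastases. The labels name 2 samples for either line, but only 1 column exists for each in the table, and the sources used here do not say if a column is 1 library or a sum. LM2 cells grew in DMEM with 10% FBS in a CO2 incubator, whereas MDA-MB-231 cells grew in Leibovitz L-15 medium with 10% FBS in air, so medium, gas phase and cell line cannot be told apart. The labels give no drug, knockdown or engineered change for either cell line.

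IGF1 and IGF2 are growth factors that act mainly through the receptor tyrosine kinase IGF1R. In the space around cells most IGF is held by IGFBPs, which keep it from the receptor until a protease cleaves them. PAPPA and PAPPA2 are secreted metalloproteases of this kind. PAPPA, known from pregnancy serum, cleaves mainly IGFBP4, and PAPPA2 cleaves mainly IGFBP3 and IGFBP5. STC1 and STC2, the stanniocalcins, bind to these proteases and block them, and IGF2R carries IGF2 to lysosomes for breakdown.

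The part of the coding sequence that makes PAPPA and PAPPA2 proteases is shown first, because these 2 genes were among the largest differences of the set. It encodes the zinc-binding motif of the metzincin family, and capitals mark the codons of the zinc-binding histidines, the catalytic glutamate and the conserved glycine. The sequences were read from GENCODE 29 transcripts on GRCh38. In PAPPA the stretch covers codons 562 to 572 at chr9:116211698-116211730 on the plus strand. In PAPPA2 it covers codons 733 to 743 at chr1:176690196-176690228 on the plus strand. The stretches share 22 of 33 bases.
PAPPA: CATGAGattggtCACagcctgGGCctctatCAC
PAPPA2: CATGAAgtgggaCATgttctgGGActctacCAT

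IGFBP2, IGFBP3 and IGFBP4 share a run of cysteines near the amino-terminal end. The exact pattern searched was glycine, cysteine, glycine, cysteine, cysteine, any pair of residues and cysteine. Capitals mark the cysteine codons. The stretch lies at chr2:216633770-216633793 on the plus strand for IGFBP2, at chr7:45920922-45920945 on the minus strand for IGFBP3 and at chr17:40443889-40443912 on the plus strand for IGFBP4. IGFBP2 and IGFBP3 share 20 of 24 bases, IGFBP2 and IGFBP4 share 18, and IGFBP3 and IGFBP4 share 19.
IGFBP2: ggcTGCggcTGCTGCtcggtgTGC
IGFBP3: ggcTGCggcTGCTGCctgacgTGC
IGFBP4: ggcTGCggcTGTTGCgccactTGC
No exact match to this pattern, glycines included, was found in the coding sequences of IGFBP6 and IGFBP7. Looser patterns were not searched, so this does not show that their cysteines are absent. A shorter motif near the carboxy-terminal end, tgctggtgtgtg in lower case throughout, was the same 12 bases in IGFBP2, IGFBP3, IGFBP4 and IGFBP6 and was not found in IGFBP7.

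Of the 10 genes, 4 were over 2-fold higher in LM2 (PAPPA2, IGFBP2, PAPPA and STC1), 1 was over 2-fold lower (IGFBP7) and 5 lay within 2-fold. All 15440 genes that met the same minimum served as background, of which 4.58% passed 2-fold upwards in LM2 and 6.9% passed it downwards. The genes were picked with these values known, so nothing is read from this contrast. For each ratio, LM2 over MDA-MB-231, the counts were scaled by the column totals (128985870 in LM2 and 130689252 in MDA-MB-231). The brackets give exact 95% Clopper-Pearson intervals, which cover counting error only, since there is no replicate check. In bulk RNA fewer expressing cells and less RNA per cell cannot be told apart. The median log2 ratio of the 10 genes was 0.28, and that of all genes was -0.00428.

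**Figure D1:**
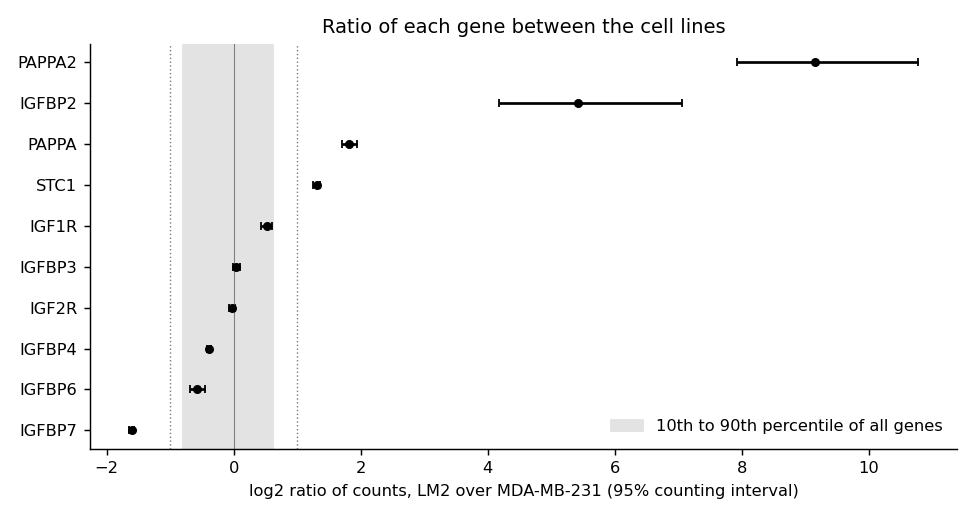
Log2 ratio of counts, LM2 over MDA-MB-231, for each of the 10 genes on the vertical axis, with 95% counting intervals as bars. The grey band spans the 10th to 90th percentile of all 15440 genes (-0.79 to 0.61), and dotted lines mark 2-fold. PAPPA2 and IGFBP2 lie far to the right with wide intervals, and IGFBP7 is the only gene left of the lower dotted line.

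PAPPA2 had 2795 counts in LM2 and 5 counts in MDA-MB-231. Its RPKM (reads scaled by transcript length and column total, a level that can be set beside that of other genes) was 3.13 (3.02 to 3.25) in LM2 and 0.00553 (0.0018 to 0.0129) in MDA-MB-231, with exact Poisson intervals. PAPPA2 was thus 566-fold higher in LM2 (242 to 1746), the 5th largest ratio of the 15440 genes. The width of this interval comes from the 5 counts in MDA-MB-231. The level in LM2 exceeded that of 65.5% of 18981 protein-coding genes, and the level in MDA-MB-231 exceeded that of 19.1%.

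Both listed PAPPA2 transcripts showed the difference. The long transcript NM_020318 encodes 1791 codons, and the short transcript NM_021936 encodes 827 codons with the zinc-binding stretch still in it. The short one had 1988 counts in LM2 and 1 count in MDA-MB-231, a ratio of 2014 with a counting interval of 361 to 79598. In LM2 its RPKM was 3.53 (3.37 to 3.69), slightly above that of the long transcript. The transcripts share their first exons, and a read from there can be counted for both, so they are not separate measurements.

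PAPPA had 2858 counts in LM2 and 821 counts in MDA-MB-231, an RPKM of 2.02 (1.95 to 2.1) in LM2 and 0.573 (0.534 to 0.613) in MDA-MB-231. It was 3.53-fold higher in LM2 (3.26 to 3.82), rank 273 from the highest ratio. PAPPA was therefore present in both cell lines, whereas PAPPA2 was close to the counting limit in MDA-MB-231. The RPKM of PAPPA2 was 1.55 times that of PAPPA in LM2 and 0.00965 times that of PAPPA in MDA-MB-231. Summed over both proteases the RPKM was 5.15 in LM2 and 0.578 in MDA-MB-231, 8.91-fold higher in LM2. Of the 10959 bases of the PAPPA model, 2450 also lie under PAPPA-AS1 on the other strand. Whether the counts separate strands was not given, so reads there may come from either of them.

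STC1, a secreted glycoprotein that inhibits PAPPA and PAPPA2, had 7830 counts in LM2 and 3213 counts in MDA-MB-231. Its RPKM was 15.7 (15.3 to 16.0) in LM2 and 6.34 (6.12 to 6.56) in MDA-MB-231, which makes it 2.47-fold higher in LM2 (2.37 to 2.57) and rank 467 from the highest. Its partner STC2 was scarce, with 116 counts in LM2 and 57 counts in MDA-MB-231, 2.06-fold higher (1.49 to 2.88). Proteases and inhibitors were both higher in LM2, but not to the same extent. The RPKM of STC1 was 7.75 times that of PAPPA in LM2 and 11.1 times that of PAPPA in MDA-MB-231. For STC1 and STC2 against PAPPA and PAPPA2, the ratio of summed RPKM was 3.07 in LM2 and 11.1 in MDA-MB-231. These are ratios of RNA, and protein was not measured here.

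**Figure D2:**
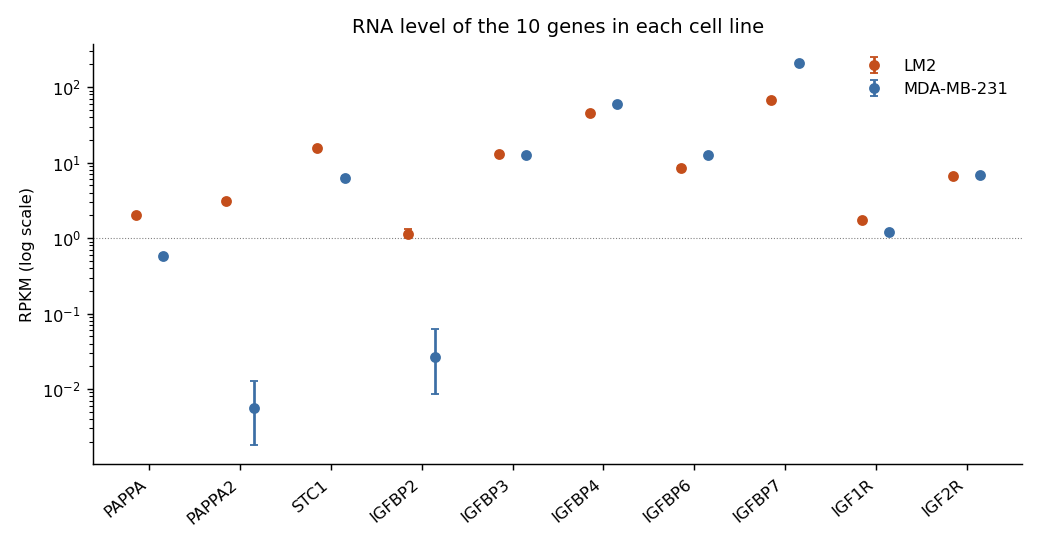
RPKM on a log axis for each of the 10 genes, with LM2 at the left and MDA-MB-231 at the right of each pair, and 95% Poisson counting intervals as bars. PAPPA2 (3.13 in LM2 and 0.00553 in MDA-MB-231) and IGFBP2 (1.14 in LM2 and 0.0268 in MDA-MB-231) span the widest gaps, and IGFBP7 has the highest level in both cell lines.

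The binding proteins differed in direction. IGFBP2, which binds IGF1 and IGF2 and is a lesser substrate of PAPPA, had 211 counts in LM2 and 5 counts in MDA-MB-231. It was 42.8-fold higher in LM2 (18.0 to 133), rank 46 of all genes. Its level stayed low even so, at an RPKM of 1.14 (0.995 to 1.31) in LM2 and 0.0268 (0.00869 to 0.0625) in MDA-MB-231.

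IGFBP3, the main carrier of IGF in serum and a substrate of PAPPA2, had 4417 counts in LM2 and 4346 counts in MDA-MB-231. Its RPKM was 13.1 in LM2 and 12.7 in MDA-MB-231, a ratio of 1.03 whose interval (0.987 to 1.07) includes 1. Its second transcript NM_001013398 had identical counts and adds no information. IGFBP4, the main substrate of PAPPA, had 13244 counts in LM2 and 17613 counts in MDA-MB-231, 1.31-fold lower in LM2 (1.28 to 1.34). Its RPKM was 45.9 in LM2 and 60.3 in MDA-MB-231. IGFBP6, which prefers IGF2 to IGF1, had 1043 counts in LM2 and 1570 counts in MDA-MB-231, 1.49-fold lower in LM2 (1.37 to 1.61), with an RPKM of 8.37 in LM2 and 12.4 in MDA-MB-231. IGFBP3 and IGFBP4 thus differed far less between the cell lines than the proteases that cleave them. The RPKM of IGFBP4 was 22.7 times that of PAPPA in LM2 and 105 times that of PAPPA in MDA-MB-231. The RPKM of IGFBP3 was 4.19 times that of PAPPA2 in LM2 and 2302 times that of PAPPA2 in MDA-MB-231.

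IGFBP7, a secreted protein of the extracellular matrix that binds IGF only weakly, had 9810 counts in LM2 and 30332 counts in MDA-MB-231. Its RPKM was 67.4 (66.0 to 68.7) in LM2 and 205.6 (203.3 to 207.9) in MDA-MB-231. It was 3.05-fold lower in LM2 (2.98 to 3.12), rank 454 from the lowest ratio. Even so it kept the highest level of the 10 genes in both cell lines, above 98.3% of protein-coding genes in LM2 and above 99.5% in MDA-MB-231. The second transcript NM_001253835 had 8333 counts in LM2 and 26021 counts in MDA-MB-231, 3.08-fold lower. The antisense RNA IGFBP7-AS1 (NR_034081) had 828 counts in LM2 and 2759 counts in MDA-MB-231, 3.29-fold lower (3.04 to 3.56). On GENCODE 29 models, 94 of the 1427 bases of IGFBP7 lie under IGFBP7-AS1 and 270 under POLR2B, both on the other strand. The counted transcript is listed at only 1129 bases, so how much of this overlap it holds is not known. POLR2B, a subunit of RNA polymerase II, had 10638 counts in LM2 and 11288 counts in MDA-MB-231. Whether reads from the shared bases were told apart by strand is not known.

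The summed RPKM of IGFBP1 to IGFBP7 was 141.6 in LM2 and 300.7 in MDA-MB-231, 2.12-fold lower in LM2. Without IGFBP7 the sum was 74.2 in LM2 and 95.1 in MDA-MB-231. IGFBP7 held 47.6% of the sum in LM2 and 68.4% in MDA-MB-231. IGFBP4 held 32.4% in LM2 and 20.0% in MDA-MB-231, and IGFBP3 held 9.26% in LM2 and 4.23% in MDA-MB-231. The larger share of IGFBP3 in LM2 reflects a smaller sum, since its own level hardly differed. IGFBP6 held 5.91% in LM2 and 4.14% in MDA-MB-231. IGFBP2 held 0.808% in LM2 and 0.0089% in MDA-MB-231. IGFBP5, the substrate that PAPPA and PAPPA2 share, had 2 counts in LM2 and 7 counts in MDA-MB-231, a ratio of 0.289 with an interval of 0.0293 to 1.52, so no difference was detectable at this depth.

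**Figure D3:**
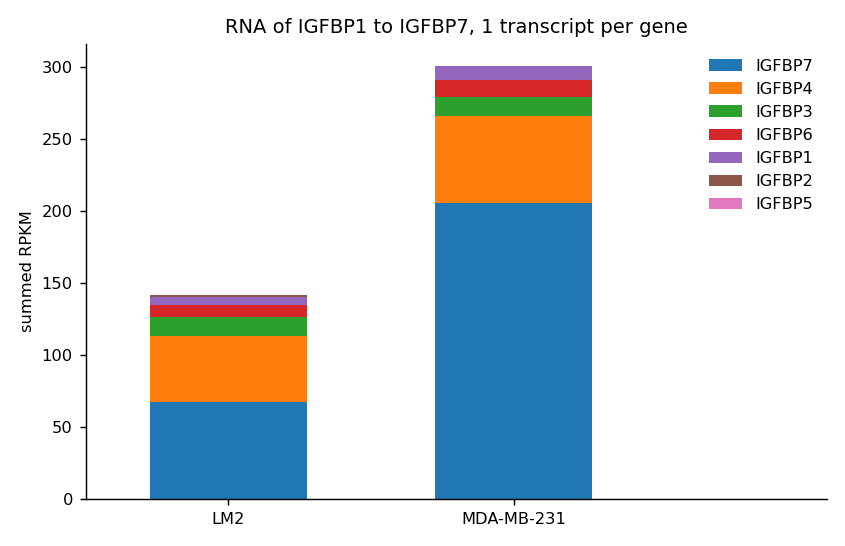
Summed RPKM of IGFBP1 to IGFBP7 as stacked bars, 1 transcript per gene, LM2 at the left and MDA-MB-231 at the right, without error bars. The total is 141.6 in LM2 and 300.7 in MDA-MB-231, and most of the gap lies in the IGFBP7 segment (67.4 in LM2 and 205.6 in MDA-MB-231). IGFBP5 is too low to be seen.

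Both receptors lay within 2-fold. IGF1R, the signalling receptor, had 2485 counts in LM2 and 1757 counts in MDA-MB-231, 1.43-fold higher in LM2 (1.35 to 1.52). Its RPKM was 1.71 in LM2 and 1.20 in MDA-MB-231. IGF2R, which is also the mannose 6-phosphate receptor, had 7871 counts in LM2 and 8147 counts in MDA-MB-231, a ratio of 0.979 whose interval (0.949 to 1.01) includes 1. The insulin receptor INSR, which can pair with IGF1R, had 1577 counts in LM2 and 2703 counts in MDA-MB-231, 1.69-fold lower (1.59 to 1.8). The RPKM of IGF1R was 1.27 times that of INSR in LM2 and 0.524 times that of INSR in MDA-MB-231, so the order of these receptors was reversed. IGF2R exceeded IGF1R in RPKM in both cell lines, 3.92 times in LM2 and 5.73 times in MDA-MB-231.

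By RPKM the order in LM2 was IGFBP7, IGFBP4, STC1, IGFBP3, IGFBP6, IGF2R, PAPPA2, PAPPA, IGF1R and IGFBP2. In MDA-MB-231 it was IGFBP7, IGFBP4, IGFBP3, IGFBP6, IGF2R, STC1, IGF1R, PAPPA, IGFBP2 and PAPPA2. No counting intervals of neighbours in the LM2 order overlapped. In MDA-MB-231 those of IGFBP3 and IGFBP6 overlapped, as did those of IGFBP2 and PAPPA2. The spread between cultures is unknown.

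The IGF ligands themselves were nearly absent. IGF2 had 0 counts in LM2 and 38 counts in MDA-MB-231, 12.5-fold lower in LM2 when 3 counts are taken as the floor of the LM2 column. Its exact counting interval started at 9.68-fold lower. IGF1 had 10 counts in LM2 and 4 counts in MDA-MB-231, with a ratio of 2.53 and an interval of 0.731 to 11.1. INS, the insulin gene, had 0 counts in both. Serum in the medium was not measured.

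Of 59 further genes of the IGF pathway, 45 had a mean of at least 50 counts. Of these 3 were over 2-fold higher in LM2, 4 were over 2-fold lower and 38 lay within 2-fold, with a median log2 ratio of -0.12. The shares over all genes were 4.58% higher and 6.9% lower, so these counts are near the background. These lists, too, were drawn up with earlier results known. Among 14 protease regulators and other proteases, 9 passed the minimum, with STC2, MMP2 and MMP3 higher and ADAM28 lower. MMP2, a gelatinase, had 244 counts in LM2 and 4 counts in MDA-MB-231, 61.8-fold higher (23.8 to 229). MMP3, a stromelysin, had 203 counts in LM2 and 25 counts in MDA-MB-231, 8.23-fold higher (5.42 to 13.01). ADAM28 had 36 counts in LM2 and 97 counts in MDA-MB-231, 2.66-fold lower (1.8 to 4.01). All of these had an RPKM under 1 in both cell lines. The protease with the highest level in the list was cathepsin D, CTSD, with an RPKM of 101.6 in LM2 and 112.3 in MDA-MB-231.

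Of 9 other binding and carrier proteins, 7 passed the minimum, 3 were over 2-fold lower in LM2 and 0 higher, with a median log2 ratio of -0.83, beside 6.9% lower and 4.58% higher over all genes. The 3 were ESM1, CCN1 and CCN2, which have an IGFBP-type domain and are best known as secreted matrix and vascular proteins. CCN2 had 2262 counts in LM2 and 9075 counts in MDA-MB-231, 3.96-fold lower (3.78 to 4.15). CCN1, the highest of the list, had 7056 counts in LM2 and 16253 counts in MDA-MB-231, 2.27-fold lower (2.21 to 2.34). ESM1 had 4 counts in LM2 and 144 counts in MDA-MB-231, 35.5-fold lower (13.6 to 132).

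Downstream of the receptors, 26 of 28 adaptors and signalling genes passed the minimum and 0 were past 2-fold in either direction, with a median log2 ratio of -0.07. The highest was the kinase AKT1, with an RPKM of 18.4 in LM2 and 24.1 in MDA-MB-231. The IGF2 mRNA binding proteins, which act on RNA and not on IGF protein, had IGF2BP2 at an RPKM of 6.39 in LM2 and 6.43 in MDA-MB-231, and 2 of 3 passed the minimum with 0 past 2-fold.

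**Figure D4:**
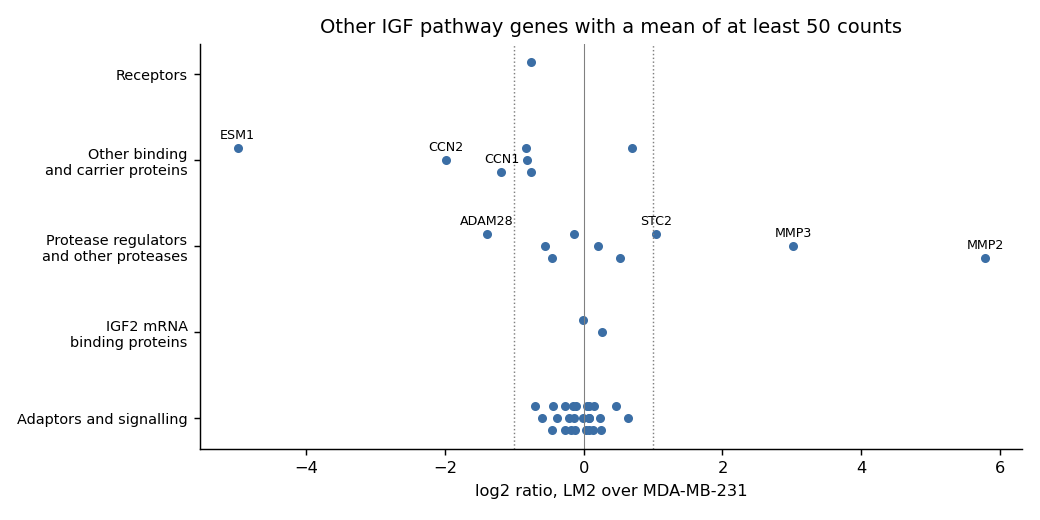
Log2 ratio, LM2 over MDA-MB-231, of the 45 other pathway genes that met the minimum of 50 counts, 1 point per gene, in rows by list, with dotted lines at 2-fold. Only genes past 2-fold are named, and the 26 adaptor and signalling genes all lie between the dotted lines.

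Each gene was set beside 30 protein-coding genes of its chromosome (29 for IGF1R) with a mean of at least 50 counts. They were those next to it in gene order, in equal numbers before and after, except that fewer were left after IGF1R. To both counts 0.5 was added before log2. The neighbours of the genes that were higher in LM2 had medians near 0, at 0.08 for PAPPA2, 0.12 for PAPPA, 0.01 for STC1 and 0.15 for IGFBP2. None of the neighbours of PAPPA2, STC1 and IGFBP2 had a higher ratio than the gene itself. Of the neighbours of PAPPA, 1 did, TNC, which encodes the matrix protein tenascin C and had 21787 counts in LM2 and 5916 counts in MDA-MB-231. IGFBP7 was likewise lower than all 30 of its neighbours, whose median was 0.05.

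For IGF1R, IGFBP6 and IGFBP3 the neighbours were shifted as a group. The 29 neighbours of IGF1R had a median log2 ratio of 0.90, and 22 of them were above IGF1R at 0.52. The neighbours of IGFBP6 had a median of 0.53, and 29 of 30 were above IGFBP6 at -0.57. The neighbours of IGFBP3 had a median of -0.57, and 28 of 30 were below IGFBP3 at 0.04. IGFBP1, which lies next to IGFBP3, had 1211 counts in LM2 and 2073 counts in MDA-MB-231, 1.69-fold lower (1.57 to 1.82). The neighbours of IGFBP4 had a median of 0.04 and those of IGF2R -0.12. DNA copy number was not measured, and its part in these values was not tested.

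**Figure D5:**
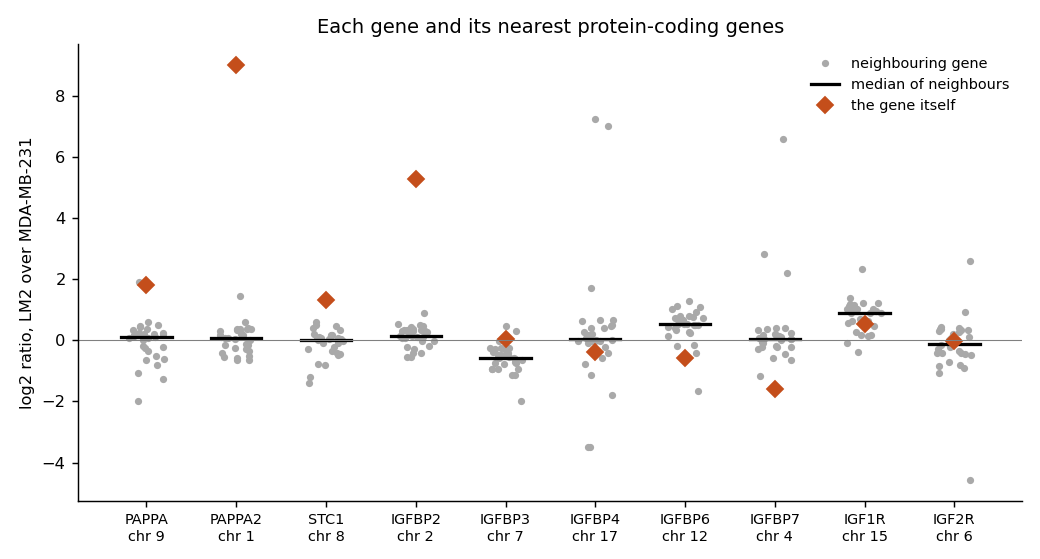
Log2 ratio, LM2 over MDA-MB-231, of each of the 10 genes (diamonds), of its 30 neighbouring protein-coding genes (29 for IGF1R, grey points) and their median (black line). The diamonds of PAPPA2 and IGFBP2 stand far above their neighbours, that of IGFBP7 lies below all of its own, and the neighbours of IGF1R are shifted upwards as a group (median 0.90).

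Promoters are shown for PAPPA2 and IGFBP2, the members with 5 counts each in MDA-MB-231, to set their CG content side by side. They are 300 bases of RefSeq sequence on GRCh38.p14, from 250 bases before to 50 after the start, with CG in capitals. That of PAPPA2 is chr1:176462925-176463224 and that of IGFBP2 chr2:216633170-216633469, both on the plus strand. Of 3 promoters listed for IGFBP2, the one nearest the start of its GENCODE transcript was taken.
PAPPA2: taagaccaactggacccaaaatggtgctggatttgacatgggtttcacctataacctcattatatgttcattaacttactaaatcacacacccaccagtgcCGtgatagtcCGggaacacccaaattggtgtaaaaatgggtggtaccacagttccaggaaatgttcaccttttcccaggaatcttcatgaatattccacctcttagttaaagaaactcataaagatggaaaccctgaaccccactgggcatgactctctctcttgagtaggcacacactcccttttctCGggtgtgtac
IGFBP2: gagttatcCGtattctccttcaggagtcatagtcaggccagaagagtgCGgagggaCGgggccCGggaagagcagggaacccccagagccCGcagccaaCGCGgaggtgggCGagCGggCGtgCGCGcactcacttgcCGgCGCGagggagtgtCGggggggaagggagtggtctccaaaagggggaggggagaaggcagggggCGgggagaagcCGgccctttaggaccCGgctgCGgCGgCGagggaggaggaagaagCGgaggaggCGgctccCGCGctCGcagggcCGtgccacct
The PAPPA2 promoter had 3 CG and the IGFBP2 promoter 28 CG, against a median of 14 over 35116 promoters, of which 24.5% had no more CG than PAPPA2. PAPPA had 6 CG and IGFBP6 had 12, whereas IGFBP4 had 30, IGFBP3 had 36, IGF2R had 41 and IGF1R had 55. The start used for IGFBP6 lay 222 bases from that of its GENCODE transcript, against at most 25 bases for the others. The letters TATAAA, on either strand, were present for PAPPA and IGFBP4 and in 11.5% of all promoters. The letters TGANTCA, on either strand, were in none of these 8 promoters and in 7.71% of all. Methylation and factor binding were not measured here.

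Genes with the most similar ratio were sought for the proteases and STC1 among those with a mean count within 2-fold, a likeness that rests on only 2 columns. For PAPPA they were SOX4 (5315 counts in LM2 and 1527 in MDA-MB-231), NLRP2 and SPHK1. For STC1 they were ARPIN-AP3S2, KRT81 (7250 counts in LM2 and 3000 in MDA-MB-231) and MARS1. For PAPPA2 none of 4930 candidates came within 0.1 on the log2 scale, and the nearest were PTPRN2 (2720 counts in LM2 and 13 in MDA-MB-231), FKBP10 (3624 counts in LM2 and 24 in MDA-MB-231) and IL1B.

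Markers expected of MDA-MB-231 and of other cell types were also read. The same markers served both columns, so they cannot tell LM2 from its parent line. VIM had an RPKM of 951.0 in LM2 and 550.0 in MDA-MB-231, and CD44, EGFR, KRT8 and KRT18 were between 9.59 and 133.7 in LM2 and between 11.6 and 126.1 in MDA-MB-231. ERBB2 had an RPKM of 3.22 in LM2 and 4.91 in MDA-MB-231, ESR1 and PGR had at most 8 counts, and CDH1 had 0 counts in LM2 and 13 counts in MDA-MB-231. The markers of fibroblasts, leukocytes, endothelium, erythroid cells and placenta were each under an RPKM of 1 in both. The 5 fibroblast markers summed to an RPKM of 1.04 in LM2 and 1.52 in MDA-MB-231. The placental hormone genes CGA and CSH1 had 0 counts in both columns, and PSG1 had 2 counts in LM2 and 104 counts in MDA-MB-231. The endothelial marker PECAM1 had 343 counts in LM2 and 48 counts in MDA-MB-231, with CDH5 at 0 in both.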

How the data were processed

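Total RNA of both cell lines was sequenced on libraries made with Illumina protocols. The submitters' processing notes name bcl2fastq, TopHat2 2.0.13 and the build hg19 (GRCh37). How reads were counted, with which strand setting and on which annotation, was not given in the sources used here. Whole-number read counts deposited by the authors were used unchanged. The RPKM values deposited by the authors equal the count divided by length and column total to a relative difference of at most 4.98e-06. An RPKM of 1 stands for 129 counts per kilobase in LM2 and 131 in MDA-MB-231. Reads of overlapping transcripts can enter the totals more than once.

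The members and the gene lists were chosen with earlier results of these data known. Symbols came from GENCODE 29 and RefSeq tables and were found for 33714 of 34791 NM_, 6795 of 7527 NR_ and 21822 of 23105 ENST identifiers. Coordinates are those of GRCh38, with none converted. Promoters were read for 8 of the 10 genes. None was listed for IGFBP7, and the sequences of STC1 were left out beforehand and not searched. With 1 column per cell line no count model could be fitted and no p-value is given. Ratios have exact Clopper-Pearson and levels exact Poisson intervals at 95%, which cover counting error only. For a fold against 0 counts, 3 counts were used as the floor. Ranks, medians and neighbours used log2 ratios after adding 0.5 counts. The text names every member, the pathway genes past 2-fold and the highest of each list, and the 3 genes nearest in ratio to PAPPA2, PAPPA and STC1. Genes named beyond these (antisense, overlapping and neighbouring genes, INS, IGF1, IGFBP1 and IGFBP5) were chosen after their values were seen. Ratios and intervals were also tested on simulated Poisson counts. These held no spread between libraries, so they check the calculation only. Tools were Python 3.11.15, numpy 2.4.6, pandas 2.3.3, scipy 1.17.1, matplotlib 3.10.9, R 4.3.3, edgeR 4.0.16 and DESeq2 1.42.0, the last pair for alternative scalings only.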

Additional observations from a re-analysis of the deposited data

How the results depend on the processing

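Ratios were recomputed under other scalings (TMM and upper-quartile factors, DESeq2 size factors), which moved all log2 ratios by at most 0.0016, on log2(RPKM + 0.1) and log2(RPKM + 1), with the longest listed NM_ transcript of each gene, and with the sum over all its transcripts. None of the 10 genes changed direction under any of these 7 alternatives, but this was largely fixed in advance. Adding the same pseudocount to both values cannot reverse a ratio. The scalings moved ratios by less than the smallest log2 ratio, -0.031 for IGF2R, and most genes had only 1 listed transcript. The direction of IGFBP3 and IGF2R, whose counting intervals include a ratio of 1, is therefore not settled by it. PAPPA was at 0.94 on log2(RPKM + 1), below 2-fold, and the other 9 stayed on their side of 2-fold. PAPPA2, with 5 counts in MDA-MB-231, was at 4.94 on log2(RPKM + 0.1), at 2.04 on log2(RPKM + 1) and at 9.54 for the sum over its transcripts. IGFBP2, also with 5 counts there, was at 3.30 and 1.06 with these pseudocounts. The median of the 10 genes was 0.17 on log2(RPKM + 1), against 0.28. Of the other pathway genes, 6 were higher and 10 lower with no minimum count, and 0 higher and 2 lower at an RPKM over 1 in at least 1 cell line, against 3 and 4. Medians of neighbours were also taken over only the 10 genes next in order, a choice made after seeing the data. They were -0.048 for PAPPA2, -0.086 for STC1, 0.65 for IGF1R and 0.29 for IGF2R, with the sign reversed for PAPPA2, STC1 and IGF2R. The cause was not tested. No paired analysis was possible because the table holds 1 column per cell line. No replicate could be left out for the same reason, and the spread between cultures is unknown.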
